A study of Mus musculus with 16 samples.

Results

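The genes measured here encode the enzymes that build cholesterol and fatty acids, and the regulators that control those enzymes. The members were fixed as a list of 31 gene names, and a locus was a member where its deposited gene name equalled a listed name. This held for 29 of the 31 names among 23282 named loci. The other names, Scd2 and Tm7sf2, occurred only in loci joined with a neighbour (Mir5114 and Vps51), so their values are given apart and enter no count of members called. All 29 members passed the filter on low counts and were among the 16130 loci tested. The list does not hold every enzyme of these pathways.

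RNA was sequenced from mouse embryoid bodies at day 6 of SFEBq, a serum-free aggregate culture that favours neural and retinal fates, in GMEM with 5% KSR and with 2% Matrigel from day 1. The embryonic stem cells carried GFP knocked in at Rx, the eye field gene Rax. The groups were untreated wild type (WT), Wdr5 KO clone #3 without doxycycline (KO), and the KO with an inducible human WDR5 to which doxycycline was added at T12h (T12h rescue) or at T48h (T48h rescue). Wdr5 encodes a subunit shared by COMPASS histone methyltransferase complexes. The KO was 1 clone, both rescues carry the same knockout, and the labels do not name the promoter behind the transgene. Doxycycline was given only to the rescues, so the drug and WDR5 cannot be told apart, and neither can the clone and the loss of Wdr5. The design asks how the timing of WDR5 induction changes the state of the aggregates at day 6.

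Each group had 2 biological duplicates run in 2 technical runs, and the runs were summed into 8 libraries of 32476669 to 65687434 fragment counts in named genes. The libraries of a group are called replicates 1 and 2, names that carry no order. The labels do not state whether duplicates were separate cultures, so p-values cover only the spread of these libraries and that spread may be technical. Levels are given as CPM, fragment counts on a common library size after TMM scaling, and differences are log2 fold changes ± SE from edgeR. Wdr5 itself lay at 28.4 to 32.5 CPM in the KO, 186 to 187 in WT, 329 to 337 in the T12h rescue and 280.0 to 294 in the T48h rescue. Fragments of the human transgene may have aligned to the mouse gene and be part of these values.

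Cells make cholesterol from acetyl-CoA through the mevalonate pathway to farnesyl diphosphate, then through squalene and lanosterol. Fatty acids are made from cytosolic acetyl-CoA by carboxylation, chain building, elongation and desaturation. Both routes are controlled by the SREBP transcription factors, which SCAP escorts from the endoplasmic reticulum to the Golgi for cleavage when membrane sterol is low, and which INSIG proteins hold back when it is high. SREBP-2, from Srebf2, acts mainly on cholesterol genes, and SREBP-1, from Srebf1, mainly on fatty acid genes. Proliferating embryonic cells need both lipids for membranes, and cholesterol also modifies Hedgehog ligands.

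Promoters of the members were read for the letters of known binding motifs of this pathway. RefSeq windows on GRCm38.p6, of 250 bases before and 50 after a start site, were at hand for 25 of the 31 names, in 32 windows. Shown are the 150 bases before the start for 5 enzymes and for the escort gene Scap. Hmgcs1 was picked because it held the sterol element core. The other enzymes had the largest log2 fold changes of the T48h rescue against the KO among the other members with a window. Scap had the largest change in the opposite direction. They are written 5′ to 3′ on the gene's strand, at chr13:119690201-119690350 (Hmgcs1, plus strand), chrX:72918371-72918520 (Nsdhl, plus), chr10:76531455-76531604 (Lss, plus), chr8:122443423-122443572 (Mvd, minus), chr5:4104698-4104847 (Cyp51, minus) and chr9:110333138-110333287 (Scap, plus). Capitals mark matches, on either strand, to TCACNCCAC (core of the sterol regulatory element), CCAAT (NF-Y), GGGCGG (Sp1) or CACGTG (E-box).
Hmgcs1: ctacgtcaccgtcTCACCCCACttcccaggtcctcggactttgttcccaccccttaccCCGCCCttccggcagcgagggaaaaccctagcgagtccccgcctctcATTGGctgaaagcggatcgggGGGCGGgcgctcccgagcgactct
Nsdhl: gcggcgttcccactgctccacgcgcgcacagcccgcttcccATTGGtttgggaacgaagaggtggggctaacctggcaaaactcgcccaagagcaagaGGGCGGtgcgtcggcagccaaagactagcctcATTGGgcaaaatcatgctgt
Lss: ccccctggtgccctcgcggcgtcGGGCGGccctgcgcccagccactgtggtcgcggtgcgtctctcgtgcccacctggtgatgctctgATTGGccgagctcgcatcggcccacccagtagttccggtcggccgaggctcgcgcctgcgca
Mvd: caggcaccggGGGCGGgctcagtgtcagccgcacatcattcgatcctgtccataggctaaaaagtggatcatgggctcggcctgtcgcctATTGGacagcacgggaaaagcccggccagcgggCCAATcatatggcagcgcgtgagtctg
Cyp51: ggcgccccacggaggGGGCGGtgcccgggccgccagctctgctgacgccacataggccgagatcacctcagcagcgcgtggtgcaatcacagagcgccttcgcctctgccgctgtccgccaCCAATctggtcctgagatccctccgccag
Scap: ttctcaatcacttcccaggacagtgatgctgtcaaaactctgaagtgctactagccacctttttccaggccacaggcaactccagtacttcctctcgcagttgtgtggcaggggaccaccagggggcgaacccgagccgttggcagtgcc

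All 5 enzyme promoters held CCAAT and GGGCGG in these 150 bases. Hmgcs1 also held the sterol element core, for which it was picked. Scap had no match in the stretch shown, which lies before only 1 of its start sites. Its full windows held GGGCGG and CACGTG, and before another start site these stood at -30 and -40. Over the full windows, and without Tm7sf2, CCAAT stood in 19 of 24 members with a window (79.2%), against 42.4% of 11357 tested genes with a window and 41.1% of all 27025 genes. GGGCGG stood in 18 (75%), against 66.1% of the tested genes and 38.2% of all. CACGTG stood in 5 (20.8%), against 11.2% and 8.09%. The sterol element core stood in 1 (4.17%), against 1.51% and 1.44%. A match is a run of letters and not a measured binding site, and a missing match says only that these letters are not in the window.

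Most genes between acetyl-CoA and cholesterol were lower in the KO than in WT, fatty acid genes were split, and most members were higher in the T48h rescue than in any other group. In the KO against WT, 14 of 29 members fell and 7 rose, with a median log2 fold change of -0.38. Of all loci tested 64.1% were called in that comparison, 32.4% lower and 31.7% higher (edgeR quasi-likelihood F-test, adjusted p under 0.05). The call rate of the members, 72.4%, was thus near the background, while their calls leaned to lower levels. Since whole aggregates were sequenced, fewer cells of a type and less RNA per cell cannot be told apart here or in what follows.

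Against the KO, the T12h rescue had 12 members higher and 9 lower, with a median of 0.14. The background was 64.8%, made up of 32.8% higher and 32.1% lower, so this count lay near it. The T48h rescue had 23 members higher than the KO and 4 lower, with a median of 1.07, where 67.3% of all loci were called, 34.2% higher and 33.2% lower. A rise of at least 1 on the log2 scale was seen in 15 of the 29 members and in 16% of all loci.

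Against WT, 10 members were lower in the T12h rescue and 19 were not called, with a median of -0.21, where 14% of all loci were called, 6.11% lower and 7.9% higher. No member was called higher in that comparison by edgeR, and 0 were higher at an unadjusted p under 0.05. DESeq2 and limma on log2 FPKM also called 0 higher. The count of 10 lower members fell to 6 without WT replicate 1, to 6 without WT replicate 2 and to 4 without T12h replicate 1. The T48h rescue had 24 members higher than WT and 1 lower, with a median of 0.69, where 47.3% of all loci were called, 23.9% higher and 23.4% lower. Against the T12h rescue it had 25 higher and 1 lower, with a median of 0.91 and a background of 50.2%, 24.9% higher and 25.3% lower. These comparisons share groups, so their counts are not independent of each other.

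The scaling of the libraries shifted the T48h comparisons as a whole. With upper-quartile in place of TMM scaling the median log2 fold change of all loci was -0.15 against the KO and -0.16 against WT, where TMM gave -0.0030 and -0.039. The calls over all loci in the T48h rescue against WT went from 3858 higher and 3769 lower to 3053 higher and 4791 lower. Of the members, 23 were then called higher than the KO and 23 higher than WT.

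The group means of 25 of 29 members were highest in the T48h rescue, as were those of 27.5% of all loci tested. The KO held the lowest mean for 16 members, against 35.6% of all loci. In 13 members the order was T48h rescue, WT, T12h rescue, KO, which 8.04% of all loci shared. They were Hmgcs1, Idi1, Fdps, Sqle, Lss, Cyp51, Nsdhl, Sc5d, Dhcr7, Srebf2, Insig1, Acaca and Scd1. The T48h rescue was called above each of the other 3 groups in 22 of 29 members (75.9%) and in 13.0% of all loci tested.

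**Figure D1:**
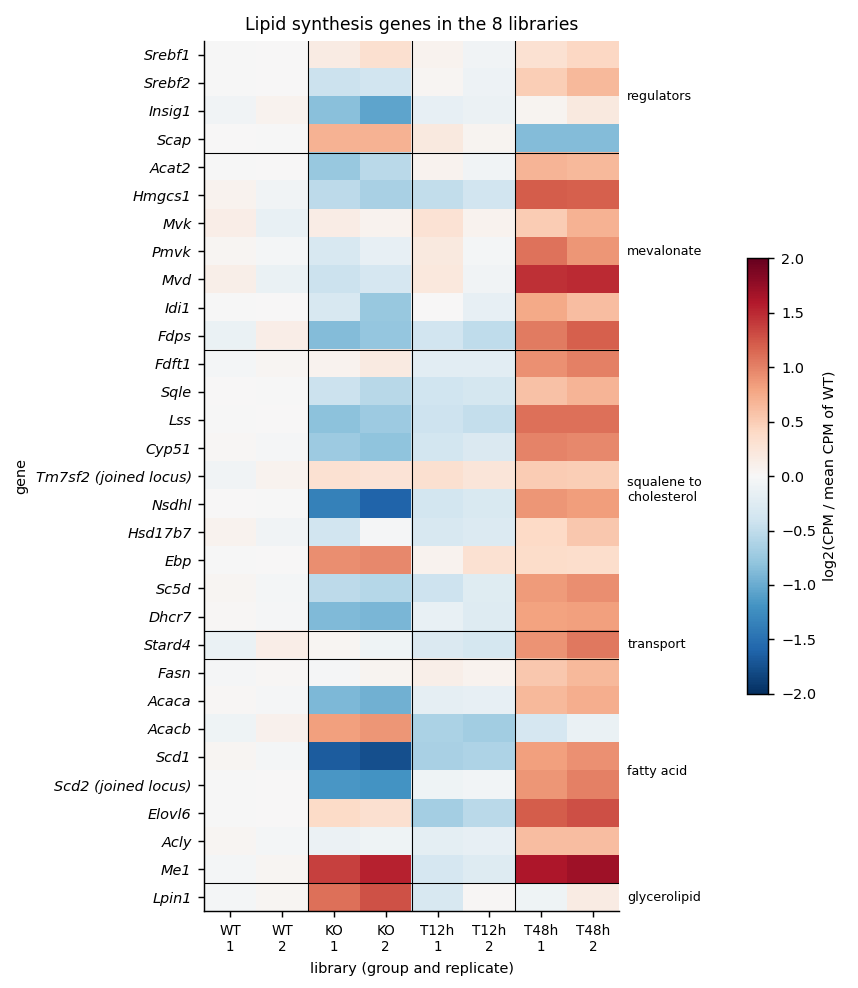
Level of each gene (rows, by role) in each of the 8 libraries (columns, by group and replicate) as log2 of CPM over the WT mean, with red for higher and blue for lower, limited to 2 in either direction. The T48h rescue columns are red for nearly all genes and blue for Scap, and the KO columns are blue for most cholesterol genes and red for Ebp, Scap, Lpin1, Acacb and Me1.

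The regulators did not move together. Srebf2 had 323 and 326 CPM in WT, 242 and 249 in the KO, 335 and 303 in T12h libraries and 458 and 510.3 in T48h libraries. The KO libraries were the lowest and the T48h libraries the highest, while the T12h libraries lay on both sides of WT. Srebf2 fell in the KO, with a log2 fold change against WT of -0.40 ± 0.07 (edgeR adjusted p = 0.000385) and stood 0.58 ± 0.07 above WT in the T48h rescue (edgeR adjusted p = 2.75e-05).

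Srebf1 ranged less. WT had 102 CPM in both libraries and the KO 115 and 128, with 107 and 97.0 in T12h libraries and 125 and 136 in T48h libraries. Both the KO and the T48h libraries were above WT, and the KO and T48h values overlapped. Its rise in the KO was 0.25 ± 0.08 (edgeR adjusted p = 0.0188), a call lost without WT replicate 1, WT replicate 2 or KO replicate 2, with adjusted p up to 0.214 over the alternatives. The deposited locus of Srebf1 also spans the neighbour Rai1, whose exons overlap it on the other strand by 109 bases.

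Insig1, the sterol-sensing anchor of SCAP, had 122 and 133 CPM in WT, 71.2 and 61.6 in the KO, 114 and 118 in T12h libraries and 132 and 146 in T48h libraries. The KO libraries were far below the rest, and the 3 other groups lay close together. The log2 fold change was -0.94 ± 0.09 in the KO against WT (edgeR adjusted p = 1.05e-06) and 0.80 ± 0.09 in the T12h rescue against the KO (edgeR adjusted p = 4.62e-06). The T48h rescue was 0.13 ± 0.09 above WT, with overlapping libraries (edgeR adjusted p = 0.268). The difference between the T48h rescue and WT was smaller for Insig1 than for Hmgcs1, Lss or Cyp51, while its fall in the KO was larger. Against the KO, Insig1 was 1.07 ± 0.09 higher in the T48h rescue (edgeR adjusted p = 2.62e-07). Insig1 is itself a textbook SREBP target, and SREBP activity was not tested.

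Scap went the other way. It had 82.5 and 82.1 CPM in WT, 134 in both KO libraries, 94.5 and 85.4 in T12h libraries, and only 45.3 and 45.0 in T48h libraries. The KO was highest and the T48h rescue lowest, with no overlap of either with another group. Scap rose in the KO by 0.70 ± 0.08 (edgeR adjusted p = 3.94e-06) and fell in the T48h rescue by -0.87 ± 0.08 against WT (edgeR adjusted p = 1.07e-06) and by -1.57 ± 0.08 against the KO (edgeR adjusted p = 1.84e-09). It was the 1 member called lower in the T48h rescue than in WT. An unspliced transcript model on the opposite strand, 5830462I19Rik, overlaps its exons by 985 bases, and without strand its reads cannot be told apart.

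**Figure D2:**
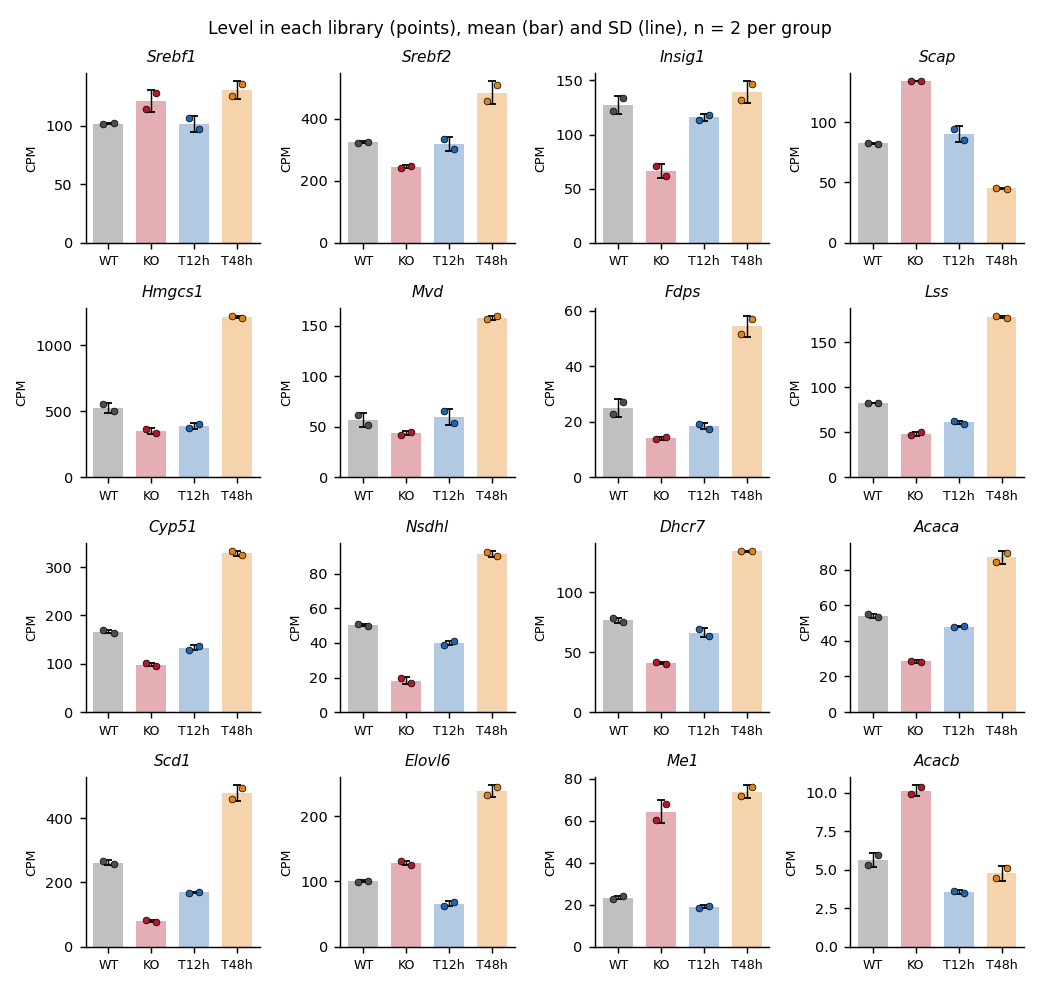
CPM of 16 members (panels) in the 4 groups, with a point for each library, a bar at the mean and a line of 1 SD (n = 2 per group), each panel on its own axis from 0. Hmgcs1, Mvd, Fdps, Lss, Cyp51, Nsdhl, Dhcr7, Acaca and Scd1 share a shape with the T48h rescue on top and the KO lowest, whereas Scap is lowest in the T48h rescue and Me1 and Acacb are high in the KO.

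All 7 genes of the mevalonate segment, from acetyl-CoA to farnesyl diphosphate, rose in the T48h rescue against the KO, with a median log2 fold change of 1.31, and against WT, with a median of 0.99. In the KO against WT 4 of the 7 fell, namely Acat2, Hmgcs1, Mvd and Fdps. Of all loci tested, 32.4% fell there, while 34.2% rose in the T48h rescue against the KO and 23.9% against WT.

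Hmgcs1 encodes the synthase that makes HMG-CoA. It had 552 and 502 CPM in WT, 367 and 335 in the KO, 373 and 403 in T12h libraries and 1219 and 1207 in T48h libraries. The T48h libraries were far above all others, and the T12h libraries lay just above the KO. The T48h rescue exceeded WT by 1.20 ± 0.07, a 2.30-fold difference (edgeR adjusted p = 2.03e-08), and the T12h rescue was below WT by -0.44 ± 0.07 (edgeR adjusted p = 0.00149). The T12h rescue differed from the KO by 0.14 ± 0.07, which was not called (edgeR adjusted p = 0.103).

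Mvd encodes mevalonate diphosphate decarboxylase. It had 61.6 and 51.6 CPM in WT, 42.2 and 44.9 in the KO, 65.3 and 53.8 in T12h libraries and 157 and 159 in T48h libraries. The T48h libraries stood apart, and WT and the T12h rescue overlapped. The difference was 1.48 ± 0.11 against WT (edgeR adjusted p = 1.07e-07). The lower level in the KO, -0.38 ± 0.11 (edgeR adjusted p = 0.00797), was not called without WT replicate 1 or with limma on FPKM, where the adjusted p reached 0.126. Mvd lies on chromosome 8, where 441 of 852 tested loci were higher and 152 lower in the KO than in WT, with a median log2 fold change of 0.49 against -0.02 elsewhere. Medians of 0.49 and 0.39 were found there in the T12h and T48h rescues against WT. The part of this shift in the values of Mvd was not tested.

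Fdps encodes farnesyl diphosphate synthase, the enzyme at the branch to isoprenoids. It had 22.8 and 27.3 CPM in WT, 13.8 and 14.6 in the KO, 19.2 and 17.6 in T12h libraries and 51.7 and 57.0 in T48h libraries. The 4 groups did not overlap. The KO was -0.82 ± 0.13 from WT (edgeR adjusted p = 0.000123) and the T48h rescue 1.94 ± 0.13 from the KO, or 3.84-fold (edgeR adjusted p = 3.34e-08). Its exons share 1124 bases with the gene model Gm43738 on the same strand, so reads may be split between them.

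The other mevalonate genes had smaller differences. Acat2, the cytosolic thiolase of the first step, fell from 69.9 and 70.8 CPM in WT to 41.7 and 48.4 in the KO. It stood at 74.2 and 66.9 in the T12h rescue, which overlapped WT, and at 113 and 110.1 in the T48h rescue. The kinases Mvk and Pmvk were not called between KO and WT and rose in the T48h rescue against WT by 0.61 ± 0.13 and 0.99 ± 0.12, the first not called without WT replicate 2. Idi1, the isomerase, was the least abundant of the segment at 3.94 to 6.74 CPM outside the T48h rescue, where it had 11.3 and 10.2. Its rise there against WT, 0.69 ± 0.22 (edgeR adjusted p = 0.0197), was not called without WT replicate 1, WT replicate 2 or T48h replicate 1, with adjusted p up to 0.122. The difference of Idi1 between KO and WT, -0.52 ± 0.22, was not called (edgeR adjusted p = 0.0554).

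Of the 9 exact members between farnesyl diphosphate and cholesterol, 6 fell in the KO against WT, 1 rose and 2 were not called. Of all loci tested, 32.4% fell and 31.7% rose there. In the T48h rescue 8 of the 9 rose against WT, with a median of 0.86, and 8 rose against the KO, with a median of 1.43. The shares over all loci were 23.9% higher against WT and 34.2% higher against the KO. In the T12h rescue against WT, where 6.11% of all loci fell, 5 of the 9 fell, namely Sqle, Lss, Cyp51, Nsdhl and Sc5d. Of these calls that of Lss held in all 17 alternatives, and those of the other 4 were each lost without T12h replicate 1.

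Nsdhl, an X-linked dehydrogenase that removes the C4 methyl groups of the sterol ring, had the largest fall of the cholesterol genes in the KO. It had 51.0 and 49.9 CPM in WT, 19.7 and 16.7 in the KO, 39.1 and 40.9 in T12h libraries and 92.9 and 90.2 in T48h libraries. Each group lay apart from the others. The KO was 2.77-fold below WT, at -1.47 ± 0.10 (edgeR adjusted p = 4.69e-08), and the T48h rescue was 5.01-fold above the KO, at 2.33 ± 0.10 (edgeR adjusted p = 5.29e-10). The T12h rescue was above the KO by 1.13 ± 0.10 (edgeR adjusted p = 5.22e-07). Its difference from WT, -0.34 ± 0.10 (edgeR adjusted p = 0.0394), was lost in 7 of 17 alternatives, including those without either WT or either T12h replicate.

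Lss encodes lanosterol synthase, which closes the sterol rings. It had 82.8 and 83.1 CPM in WT, 47.0 and 49.9 in the KO, 62.5 and 59.5 in T12h libraries and 179 and 177 in T48h libraries. Again the 4 groups did not overlap, with the T12h rescue between the KO and WT. The log2 fold changes were -0.78 ± 0.08 for the KO (edgeR adjusted p = 1.17e-06), -0.44 ± 0.08 for the T12h rescue (edgeR adjusted p = 0.00165) and 1.10 ± 0.08 for the T48h rescue (edgeR adjusted p = 5.29e-08), each against WT.

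Cyp51 encodes lanosterol demethylase, the next enzyme. It had 169 and 164 CPM in WT, 101 and 95.6 in the KO, 129 and 136 in T12h libraries and 332 and 325 in T48h libraries. The order of the groups was that of Lss. Its log2 fold changes against WT were -0.76 ± 0.07 in the KO (edgeR adjusted p = 6.53e-07), -0.33 ± 0.07 in the T12h rescue (edgeR adjusted p = 0.00691) and 0.98 ± 0.07 in the T48h rescue (edgeR adjusted p = 8.05e-08). The T12h call was lost without WT replicate 1 or T12h replicate 1, with adjusted p up to 0.0719.

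Dhcr7, the reductase that completes cholesterol in the Kandutsch-Russell branch, had 78.1 and 75.1 CPM in WT, 41.4 and 40.5 in the KO, 69.0 and 63.7 in T12h libraries and 134 and 135 in T48h libraries. The KO libraries were 1.87-fold below WT, at -0.90 ± 0.08 (edgeR adjusted p = 4.25e-07). The T12h rescue was near WT, at -0.21 ± 0.08 (edgeR adjusted p = 0.105), and the T48h rescue 1.75-fold above it, at 0.81 ± 0.08 (edgeR adjusted p = 1.74e-06).

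Squalene epoxidase (Sqle) and the desaturase Sc5d fell in the KO by -0.48 ± 0.08 and -0.54 ± 0.09, stayed below WT in the T12h rescue by -0.38 ± 0.08 and -0.33 ± 0.09, and rose in the T48h rescue by 0.63 ± 0.08 and 0.89 ± 0.09. Hsd17b7, a ketoreductase of C4 demethylation, was called only in comparisons with the T48h rescue, where it had 40.0 and 43.9 CPM against 23.3 to 31.7 elsewhere. Its difference between the T48h rescue and WT, 0.47 ± 0.13, was not called with upper-quartile scaling, without either WT replicate or without T48h replicate 2. The isomerase gene Ebp was the exception of the segment. It had 14.2 and 14.3 CPM in WT, 27.1 and 27.7 in the KO, 14.9 and 17.5 in T12h libraries and 18.4 and 18.2 in T48h libraries, so that the KO libraries alone were high. Ebp rose in the KO by 0.94 ± 0.14 (edgeR adjusted p = 5.95e-05). The joined locus that holds the sterol reductase Tm7sf2 and Vps51 had 46.0 and 50.6 CPM in WT and 68.5 and 68.2 in the T48h rescue, with 57.1 to 60.4 in the KO and the T12h rescue. How much of it is Tm7sf2 cannot be told from these tables.

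**Figure D3:**
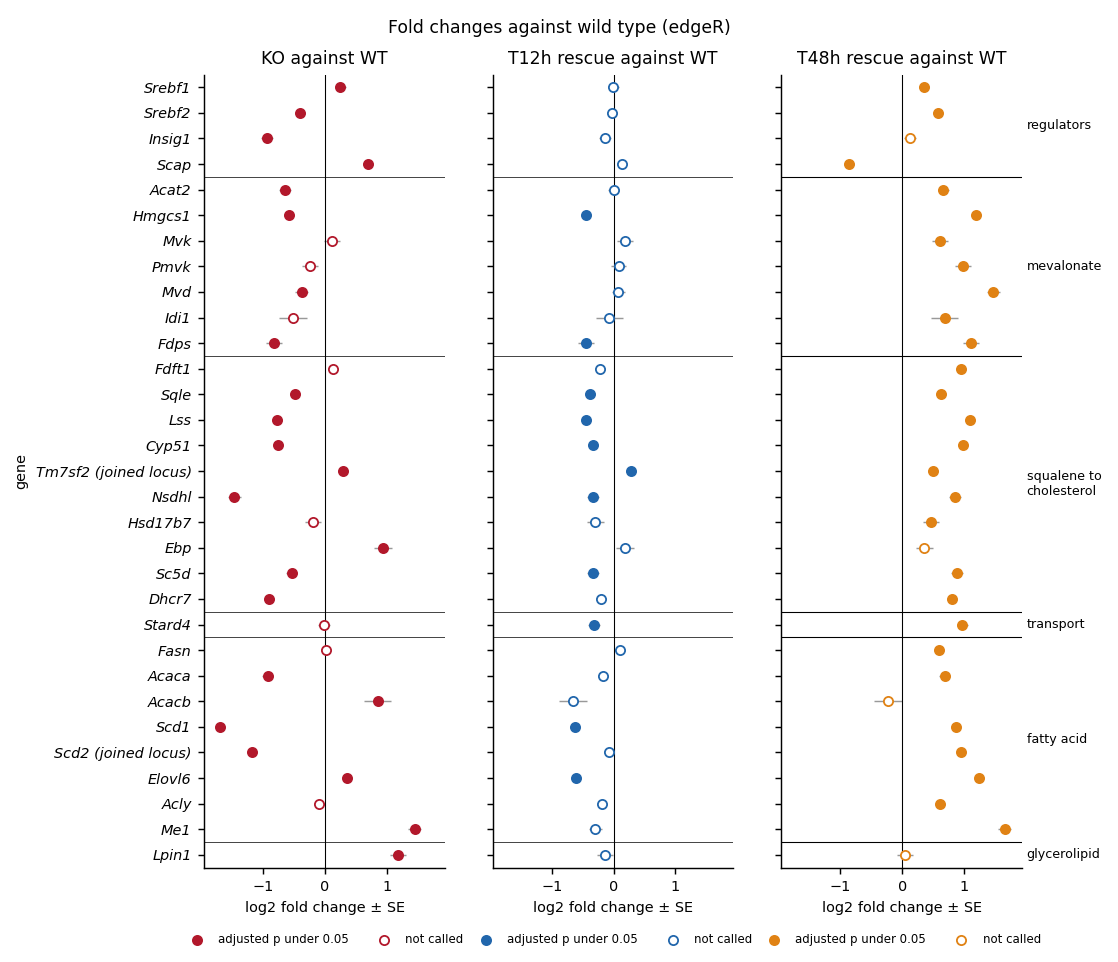
Log2 fold change against WT with its SE (horizontal axis) for each gene (rows, by role) in the KO, the T12h rescue and the T48h rescue, with filled points for an edgeR adjusted p under 0.05 and open points for the rest. Points spread to both sides in the KO, lie near or below 0 in the T12h rescue, and lie above 0 in the T48h rescue for all genes shown but Scap and Acacb.

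Fatty acid genes were more mixed. Of the 7 exact members, Acaca and Scd1 fell in the KO, Acacb, Elovl6 and Me1 rose, and Fasn and Acly were not called. In the T48h rescue 6 of 7 rose against WT, with Acacb not called. Of all loci tested, 32.4% fell and 31.7% rose in the KO, and 23.9% rose in the T48h rescue, each against WT.

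Scd1, a stearoyl-CoA desaturase that makes monounsaturated fatty acids, had the largest log2 fold change of the 29 members over the 6 comparisons. It had 268 and 256 CPM in WT, 83.0 and 77.6 in the KO, 168 and 171 in T12h libraries and 461 and 495 in T48h libraries. The 4 groups were well apart, and the T12h rescue lay between the KO and WT. The KO was 3.26-fold below WT, at -1.71 ± 0.07 (edgeR adjusted p = 3.91e-10), and the T48h rescue 5.95-fold above the KO, at 2.57 ± 0.07 (edgeR adjusted p = 1.08e-11). The T12h rescue remained -0.63 ± 0.07 below WT (edgeR adjusted p = 8.64e-05). The neighbouring joined locus of Scd2, the desaturase paralog next to Scd1, and the microRNA Mir5114 had 1365 and 1391 CPM in WT, 613 and 599 in the KO, 1299 and 1324 in T12h libraries and 2541 and 2786 in T48h libraries. Unlike Scd1, this locus was -0.07 ± 0.07 from WT in the T12h rescue (edgeR adjusted p = 0.537), while its fall in the KO was -1.19 ± 0.07 (edgeR adjusted p = 5.13e-09). Whether the paralogs differ in that comparison was not tested.

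The acetyl-CoA carboxylases went in opposite directions. Acaca, the cytosolic form that supplies malonyl-CoA for synthesis, had 54.9 and 53.2 CPM in WT, 28.9 and 27.9 in the KO, 47.7 and 48.1 in T12h libraries and 84.3 and 89.6 in T48h libraries. Its level in the KO was 1.90-fold below WT, at -0.93 ± 0.09 (edgeR adjusted p = 8.77e-07), and in the T48h rescue 0.69 ± 0.09 above WT (edgeR adjusted p = 2.18e-05). Acacb, the mitochondrial form that restrains fatty acid oxidation, had 5.30 and 5.94 CPM in WT, 9.90 and 10.4 in the KO, 3.63 and 3.48 in T12h libraries and 4.44 and 5.12 in T48h libraries. It rose in the KO by 0.85 ± 0.22 (edgeR adjusted p = 0.00407) and fell in both rescues against the KO, with -1.51 ± 0.22 for the T12h rescue (edgeR adjusted p = 5.08e-05) and -1.08 ± 0.22 for the T48h rescue (edgeR adjusted p = 0.000705).

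Elovl6, which extends palmitate to stearate, had 99.3 and 101 CPM in WT, 131 and 126 in the KO, 62.8 and 68.7 in T12h libraries and 232 and 245 in T48h libraries. Here the T12h rescue, not the KO, was lowest. Against WT the differences were 0.35 ± 0.07 in the KO (edgeR adjusted p = 0.00102), -0.61 ± 0.08 in the T12h rescue (edgeR adjusted p = 0.000171) and 1.25 ± 0.08 in the T48h rescue (edgeR adjusted p = 1.49e-08).

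Me1, the malic enzyme that supplies NADPH for synthesis, had 22.8 and 24.0 CPM in WT, 60.3 and 68.1 in the KO, 18.6 and 19.5 in T12h libraries and 71.8 and 76.0 in T48h libraries. The KO and T48h libraries were high, and the WT and T12h libraries low. Me1 rose in the KO by 1.46 ± 0.10 (edgeR adjusted p = 5.33e-08) and in the T48h rescue by 1.66 ± 0.10 (edgeR adjusted p = 2.21e-08), each against WT. The T48h rescue differed from the KO by 0.20 ± 0.10, which was not called (edgeR adjusted p = 0.0855).

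The central enzymes Fasn, the fatty acid synthase, and Acly, which makes cytosolic acetyl-CoA from citrate, changed least of the 7 fatty acid members. Fasn lay between 715 and 791 CPM in the WT, KO and T12h libraries, with 1050.5 and 1137 in the T48h rescue, a difference of 0.59 ± 0.07 from WT (edgeR adjusted p = 7.88e-06). Acly lay between 482 and 565 CPM in those 3 groups, with 843 and 845 in the T48h rescue, a difference of 0.61 ± 0.06 from WT (edgeR adjusted p = 2.63e-06). Lpin1, a phosphatidate phosphatase of glycerolipid synthesis, had 70.9 and 80.2 CPM in the KO against 26.6 to 37.3 in the other 6 libraries. Its rise in the KO was 1.18 ± 0.13 (edgeR adjusted p = 3.73e-06).

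The rescues differed from each other in size for most members and in sign for 3. Fdft1, the squalene synthase, Stard4, a cholesterol carrier protein of the cytosol, and Elovl6 were lower than the KO in the T12h rescue and higher than the KO in the T48h rescue, a combination found in 3.26% of all loci. Fdft1 had 77.1 and 83.4 CPM in the KO, 63.4 and 63.7 in T12h libraries and 138 and 148 in T48h libraries, with 71.8 and 75.5 in WT. Stard4 had 114 and 105 CPM in the KO, 90.9 and 87.6 in T12h libraries and 207 and 230.4 in T48h libraries, with 101 and 122 in WT. The T12h fall of Stard4 against the KO, -0.30 ± 0.09 (edgeR adjusted p = 0.0137), was lost without KO replicate 1 or either T12h replicate. The exons of Fdft1 share 774 bases with Ctsb on the other strand, a limit on its values that was not tested.

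In the T12h rescue 6 members that were lower in the KO were higher than the KO and not called against WT. They were Acat2, Mvd, Dhcr7, Srebf2, Insig1 and Acaca. A further 8 were below WT in both the KO and the T12h rescue, namely Hmgcs1, Fdps, Sqle, Lss, Cyp51, Nsdhl, Sc5d and Scd1. The first combination of calls was found in 24.6% of all loci, near the 20.7% of the members, and the second in 2.42%, against 27.6%. Without T12h replicate 1 the T12h calls of Fdps, Sqle, Cyp51, Nsdhl and Sc5d were lost, which leaves 3 of the 8, and that of Fdps was lost in 6 of 17 alternatives. A miss of the threshold does not show equality with WT. In the T48h rescue 13 members that were lower in the KO stood above WT (44.8%), as did 6.15% of all loci.

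Per transcript length, on the FPKM scale of the deposited table, Hmgcs1 and Acly were the most abundant of the 29 members in every group. In WT Hmgcs1 had 139 ± 10.4 FPKM, Acly 108 ± 3.90, Fasn 63.8 ± 0.790 and Srebf2 59.7 ± 0.0726 (SD, n = 2). Acaca, Idi1 and Acacb were the least abundant in WT, at 4.96 ± 0.127, 2.05 ± 0.00156 and 0.558 ± 0.0438. Hmgcs1 reached 320 ± 3.79 FPKM in the T48h rescue (SD, n = 2). The transcription factor Srebf2 was thus at a higher level per length than most of the enzymes. On this scale the KO mean of Srebf1, 24.1 ± 2.47, was above that of the T48h rescue, 22.2 ± 0.864 (SD, n = 2), the reverse of the CPM order.

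**Figure D4:**
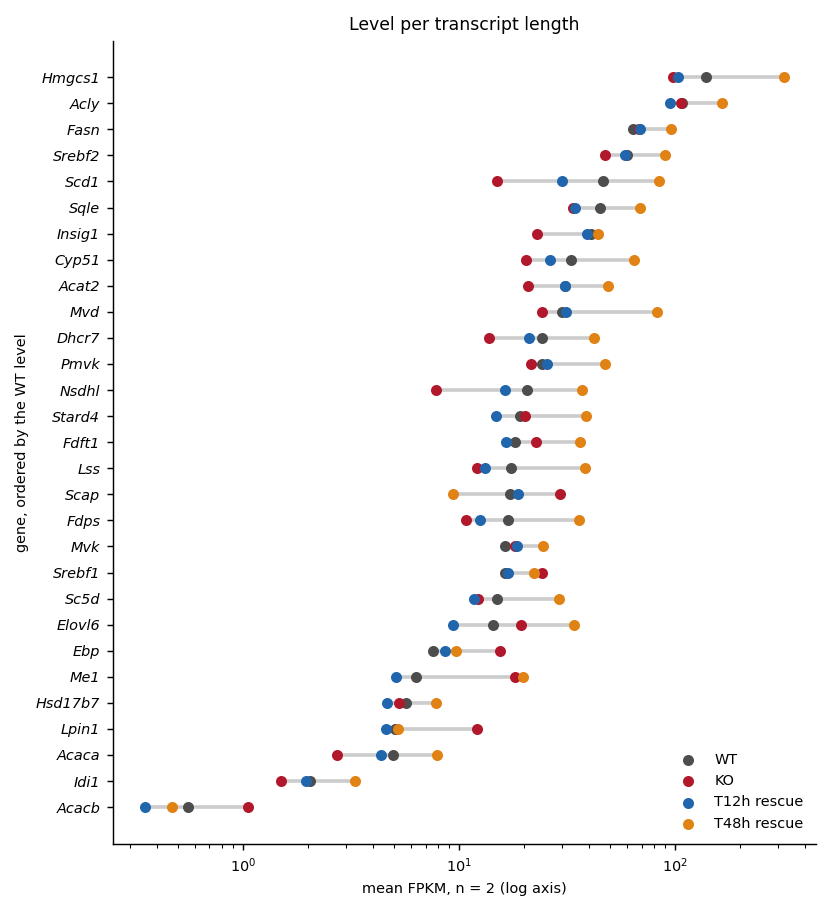
Mean FPKM of each of the 29 members (rows, ordered by WT) in the 4 groups (colours, n = 2 each) on a log axis, with a grey line from the lowest to the highest group. Levels span from under 1 FPKM for Acacb to 320 for Hmgcs1 in the T48h rescue, and the orange T48h point is the rightmost in most rows.

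Other genes of lipid metabolism were counted in lists that hold no member. Over all loci tested, 31.7% were higher and 32.4% lower in the KO against WT, and 32.1% lower in the T12h rescue against the KO. In the T48h rescue 34.2% were higher and 33.2% lower against the KO, and 23.9% higher and 23.4% lower against WT. Of 20 loci for other fatty acid synthesis, elongation and desaturation, 12 fell and 5 rose in the KO against WT, and 14 rose and 4 fell in the T48h rescue against the KO. The desaturase Fads1 had 188 and 189 CPM in WT, 69.4 and 65.7 in the KO, 171 and 164 in T12h libraries and 226 and 229 in T48h libraries. Fads2 had 233 and 214, 80.7 and 69.5, 209.5 and 198, and 223 and 245 CPM in the same order. Both were low in the KO only. Elovl2, an elongase of polyunsaturated chains, had 70.9 and 70.7 CPM in WT and 77.5 and 81.6 in the T12h rescue, against 11.5 and 14.4 in the KO and 9.75 and 13.0 in the T48h rescue.

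Sterol uptake, transport and esterification genes had 6 of 15 higher and 5 lower in the KO against WT, and 9 higher and 2 lower in the T48h rescue against WT. The KO counts lay near the shares over all loci, 31.7% higher and 32.4% lower. The lipoprotein receptor Vldlr had 52.1 and 48.8 CPM in WT, 8.99 and 9.01 in the KO, 31.2 and 30.1 in T12h libraries and 114 and 125 in T48h libraries. That order was the one of Scd1 and Nsdhl, and the KO log2 fold change was -2.49 (edgeR adjusted p = 2.43e-10). Scarb1, the HDL receptor, had 145 and 152 CPM in the T48h rescue against 40.7 to 65.1 in the other groups. Soat1, which esterifies cholesterol, had 473 and 550.2 CPM in the T48h rescue, 329.5 and 346 in the KO and 234 to 265 in WT and the T12h rescue.

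In the list of LXR targets and efflux genes, 7 of 12 rose and 3 fell in the KO against WT. In the T48h rescue against the KO 2 rose and 6 fell. Over all loci 31.7% rose and 32.4% fell in the first comparison, and 34.2% rose and 33.2% fell in the second. Abca1, the cholesterol exporter, had 16.4 and 21.5 CPM in WT, 55.8 and 60.2 in the KO, 25.5 and 27.1 in T12h libraries and 7.41 and 6.94 in T48h libraries. This order was the reverse of that of the 13 members named above. Apoe had 284 to 333 CPM in WT and the T12h rescue and 474 to 527 in the KO and the T48h rescue. Abca2 had 84.3 to 107 CPM in WT and the T12h rescue and 7.08 to 9.69 in the KO and the T48h rescue.

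Fatty acid oxidation genes were higher in the KO. Of 19 loci, 15 rose in the KO against WT and 14 fell in the T12h rescue against the KO, and in the T48h rescue against the KO 12 fell and 2 rose. Cpt1a, the gate of mitochondrial fatty acid entry, had 11.8 and 9.73 CPM in WT, 89.1 and 90.7 in the KO, 8.01 and 7.42 in T12h libraries and 0.872 and 1.81 in T48h libraries. Its log2 fold change was 3.06 in the KO against WT (edgeR adjusted p = 1.72e-08) and -6.05 in the T48h rescue against the KO (edgeR adjusted p = 1.56e-10). The KO and T48h libraries were thus at the ends of the range, with WT and the T12h rescue between them. Acadvl and Etfdh, of the oxidation spiral and its electron transfer, rose in the KO by 1.46 and 1.25.

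The remaining lists held calls in both directions in the KO against WT, where 31.7% of all loci were higher and 32.4% lower. Glycerolipid synthesis had 6 of 15 loci higher and 5 lower in the KO against WT. In the T48h rescue against WT it had 3 higher and 8 lower, where 23.9% of all loci were higher and 23.4% lower. The phosphatase Lpin2 had 61.8 and 63.8 CPM in WT and 14.8 and 17.5 in the KO, the reverse of Lpin1. The isoprenoid branch had 3 of 11 higher and 4 lower in the KO, and Ggps1, which makes geranylgeranyl diphosphate, fell there by -0.68. Other sterol pathway and SREBP processing genes had 6 of 12 higher and 1 lower in the KO, among them the protease Mbtps1 at 0.47 and Erlin2 at 0.60, both on chromosome 8 like Mvd. Over the alternatives the 6 higher genes of that list became 3 to 6. In the T48h rescue against the KO its 6 higher genes became 2 to 5.

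**Figure D5:**
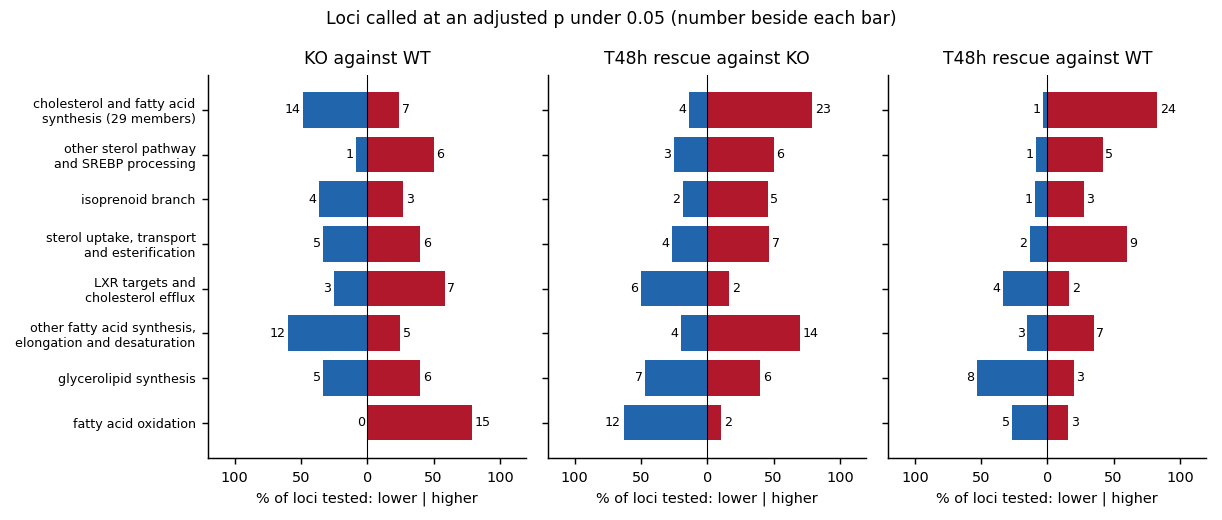
Percent of tested loci called lower (blue, left) and higher (red, right) at an edgeR adjusted p under 0.05 for the 29 members and 7 other lists of lipid genes in 3 comparisons, with the number of loci beside each bar. The members lean to the left in the KO against WT and to the right in the T48h rescue, while fatty acid oxidation leans the other way in the first pair of panels.

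The groups also differed in the cell types their RNA points to, and the values of marker lists stand beside those of the members. Summed eye field and retinal progenitor markers were 1439 to 1506 CPM in WT, 6.12 to 9.83 in the KO, 1710 to 1744 in the T12h rescue and 20.2 to 22.1 in the T48h rescue. All 9 loci of that list fell in the KO and in the T48h rescue against WT. Pluripotency markers summed to 1159 to 1217 CPM in the KO and to 124 to 265 in the other groups, and all 8 rose in the KO against WT. Cardiac mesoderm markers summed to 2734 to 2799 CPM in the T48h rescue, 233 to 245 in the KO and 76.2 to 107 in WT and the T12h rescue, and all 10 loci rose in the T48h rescue against each other group. The 4 groups thus differed in the RNA of cell type markers, while the shares of the cells themselves were not measured. The part of these differences in the values of the lipid genes was not tested.

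Summed paraxial mesoderm and mesenchyme markers were highest in the T48h rescue, at 1099 to 1218 CPM against 131 to 362 elsewhere. Of the 8 genes, 6 were called higher and 1 lower there against WT, and 5 higher and 1 lower against the KO. Endothelial and blood markers also had their highest sums there, at 681 to 714 CPM against 94.3 to 160.0. Of these 8 genes, 5 were higher and 0 lower against WT, 6 and 0 against the KO, and 5 and 2 against the T12h rescue. Neural progenitor markers summed to 1025 to 1100 CPM in WT, 322 to 329 in the KO, 1049 to 1095 in the T12h rescue and 235 to 244 in the T48h rescue. Of their 9 loci, 7 were lower and 1 higher in the KO against WT, and 8 lower and 0 higher in the T48h rescue against WT. Trophoblast markers summed to 297 to 312 CPM in the KO and 415 to 450.0 in the T48h rescue, against 42.7 to 49.5 in WT and the T12h rescue. Of the 6 genes, 5 were called higher and 0 lower in the KO against WT. In the T48h rescue 3 were higher and 3 lower against WT, and 2 higher and 3 lower against the KO. Endoderm markers summed to 362 to 370.3 CPM in WT, 698 to 712 in the KO, 328 to 432 in the T12h rescue and 561 to 668 in the T48h rescue. Of these 11 genes, 7 were called higher and 4 lower in the KO against WT, and 4 higher and 2 lower in the T48h rescue against WT. Summed postmitotic neuron markers were highest in the KO, at 147 to 149 CPM against 35.1 to 58.5 elsewhere. Of these 6 genes, 4 were higher and 1 lower in the KO against WT.

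Markers of adipocytes and hepatocytes, the tissues best known for lipid synthesis, were low in every group, with sums of 8.19 to 10.6 CPM in WT, 29.9 to 31.8 in the KO, 13.7 to 15.7 in the T12h rescue and 14.6 to 15.2 in the T48h rescue. Hnf4a made up most of these sums. Adipoq, Cyp7a1, Alb and Plin1 did not pass the filter on low counts. Of the 4 genes tested, 3 were higher in the KO than in WT, namely Hnf4a, Pparg and Fabp4. In the T48h rescue 1 was higher and 1 lower than in WT, and all 4 were lower than in the KO. In the T48h rescue, where the members were highest, Adipoq, Fabp4, Cyp7a1 and Alb had 0 counts in both libraries.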

How the data were processed

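Per the labels' protocols, RNA was isolated with a column kit and DNase treatment, and libraries were made with the TruSeq protocol. The submitters' processing notes name TopHat2 2.1.1, SAMtools 1.5, deepTools and Cufflinks 2.2.1 with the build mm10. Which annotation was used, and whether counting used strand, is not given in the sources used here. Reads of antisense and overlapping genes therefore cannot be told apart. Besides the overlaps given above, exons of Hmgcs1 share 557 bases with Gm48342 on the other strand, and those of Lss 381 with 4930483K19Rik. Such overlaps were 323 bases for Idi1 with Gm48574 and 166 for Cyp51 with Akap9. They were 34 for Elovl6 with Gm35986 and 30 for Me1 with A330041J22Rik. Per the file headers, the deposited tables hold estimated counts of fragments and FPKM for 28432 loci, with coordinates and gene names. The authors' estimated counts had been multiplied by 1 factor per column. The value of 1 fragment was 0.630 to 1.29, and 91.8% to 92.6% of a column's values came out whole after division, with a tolerance of 0.02 fragments. The factor was divided out and the values were rounded.

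Columns name the group but not the duplicate or run. Columns of a duplicate were found by a chi-square of their counts, with a mean per degree of freedom of 1.60 to 1.83 within pairs and 9.07 to 16.5 between them, and were summed. Left out were 5143 unnamed loci (3.15% to 6.18% of counts) and 8 loci (7 with a name) whose status word marked too many fragments to quantify in some column. The 112 other columns of bounds, variances and status entered no test.

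The test was the quasi-likelihood F-test of edgeR 4.0.16 (R 4.3.3) with TMM, filterByExpr and Benjamini-Hochberg adjustment over 16130 loci at an adjusted p under 0.05. A single model held the 4 groups, with no term but group and 4 residual degrees of freedom, and the common biological coefficient of variation was 12.6%. The step was tested on simulated data. Alternatives were RLE and upper-quartile scaling, DESeq2 1.42.0, limma 3.58.1 on log2(FPKM + 1) and log2(FPKM + 0.1) of the deposited FPKM, no filter, single technical columns, the 2 groups compared alone, no chromosome 8, and each library left out. The log2 scale with a pseudocount understates changes of low genes.

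The members and all lists were chosen with earlier results of these data known. Values in every library are given for the 4 regulators and the 12 other members with the largest called log2 fold change over the 6 comparisons, and for further members, chosen after their values were seen, where groups or rescues differ in direction. Of the other lists, genes are named from the 4 with the smallest adjusted p in a comparison. The motifs searched were fixed with the lists.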

Additional observations from a re-analysis of the deposited data

Results flagged for a closer look

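In 3 members the rescues moved away from the KO in opposite directions. They were chosen for that pattern, so the difference between the rescues had to follow and its test is no separate support. Fdft1 had log2 fold changes against the KO of -0.34 in the T12h rescue and 0.84 in the other, and the rescues differed by 1.17 ± 0.08 (edgeR adjusted p = 4.66e-08). Stard4 was at -0.30 and 0.99, and the rescues differed by 1.29 ± 0.10 (edgeR adjusted p = 1.09e-07). Elovl6 was at -0.96 and 0.89, and the rescues differed by 1.86 ± 0.08 (edgeR adjusted p = 2.92e-10). Both T48h libraries were above both T12h libraries in each of the 3 genes. The T12h call of Stard4 against the KO was lost without KO replicate 1, T12h replicate 1 or T12h replicate 2.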

How the results depend on the processing

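Of 186 results, 1 for each of 31 loci (the 2 joined loci included) in 6 comparisons, 139 were called. Of these 115 stayed called in every alternative that held the locus, which was 17 alternatives, or 16 for Mvd. The other 24 were lost under at least 1, and 12 uncalled results gained a call. A called result changed sign in 0 cases, while 17 of the 47 uncalled results crossed 0. Counts of the 29 members called over the 17 alternatives were 19 to 22 for the KO against WT, 18 to 21 and 26 to 27 for the T12h and T48h rescues against the KO, 21 to 26 for the T48h rescue against WT and 22 to 26 against the T12h rescue. The T12h rescue against WT was the least stable, with 4 to 11 calls where 10 were found, all of them lower. Leaving out single libraries gave 4 to 10 calls there, with 6 without WT replicate 1, 6 without WT replicate 2 and 4 without T12h replicate 1. The cause was not tested. With the 2 joined loci counted as members, a choice made after seeing the data, 1 locus (Tm7sf2 with Vps51) was higher in that comparison. Its call was lost in 14 alternatives. No paired analysis was possible because the columns carry the group but neither duplicate nor run numbers. Counts of the other lists moved too. In the T12h rescue against WT, the 3 higher genes of the other sterol list became 0 to 4. The 2 higher genes in each of the LXR, glycerolipid and oxidation lists fell there to as few as 0. In the T48h rescue against the T12h rescue, the 4 higher genes of the other sterol list became 0 to 4. The 3 lower sterol uptake genes became 0 to 3. The higher genes of the T48h rescue also moved in its other comparisons. Against WT, those of other sterol genes went from 5 to as few as 2, of the isoprenoid branch from 3 to 1 and of fatty acid oxidation from 3 to between 1 and 4. Against the KO, isoprenoid genes went from 5 to 3 or 4. The 2 higher LXR targets, and the 2 higher oxidation genes, became 1 in some alternatives and stayed at 2 in others. With 2 libraries per group, small T12h differences such as those of Nsdhl and Cyp51 were called or missed with the library left out.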
